A study of Mus musculus and Homo sapiens with 15 samples.

Results

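The genes for the protein subunits of the cytosolic ribosome were followed through thymus tumours, grafted tumours and a leukaemia cell line, with and without arsenic trioxide (ATO). Members were all genes whose symbol has the form of a numbered Rpl or Rps gene, ignoring case, together with Rplp0, Rplp1, Rplp2 and Rpsa. Symbols of named pseudogenes, the Rps6k kinases and Rps27l were left out. The rule found 88 of 52340 genes in the thymus table, 88 of 56691 in the graft table and 85 of 61806 in the human table. In both mouse systems 82 of the 88 were annotated as protein coding in GENCODE. The other 6 (Rps3a2, Rps3a3, Rps4l, Rps12l1, Rpl6l and Rpl32l) were annotated as pseudogenes in spite of their names.

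The thymus samples came from W/W mice, homozygous for p53 R282W and carrying T-lymphomas, all taken on day 150 after birth. They form 3 groups of 3 libraries: mice given water, ATO-treated mice labelled as progressing and ATO-treated mice labelled as regressing. The grafts were tumours in C57 mice (labelled a CDX model, genotype WT) treated with phosphate-buffered saline (PBS) or ATO, 2 libraries each. U937, a human myeloid leukaemia line, expressed p53 R282W and gave 1 library after PBS and 1 after ATO. The labels do not give the ATO dose or the grafted cells. Since outcome defines the progressing and regressing groups, treatment and outcome cannot be told apart when either is set against water. Nothing in the labels says that replicates were separate animals, so p-values measure the spread between these libraries.

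Each ribosome carries nearly every subunit protein in a single copy, and the genes for them are expressed together in all cells, at high levels in dividing cells. Many of their mRNAs begin with a run of pyrimidines through which mTOR signalling controls their translation, and MYC drives both the subunit genes and the factors that assemble ribosomes. When assembly is disturbed, free Rpl5, Rpl11 and Rpl23 can bind Mdm2 and thereby stabilise p53. Heterozygous loss of Rps19 or of certain other members causes Diamond-Blackfan anaemia, and Rpl22 is required for the development of T cells.

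Total counts ran from 12800367 to 17872972 per library, and members took up between 2.61% and 11.1% of them. T lineage transcripts were present in every mouse group: the summed level of 10 such markers was 2171 to 2793 CPM (counts scaled to a fixed library size) in water, 3826 to 4990.3 in progressing and 3821 to 6925 in regressing thymuses. It was 7802 to 8773 CPM in PBS grafts and 4288 to 6201 in ATO grafts. All CPM values of mouse genes are on library sizes adjusted by TMM, a scaling that assumes most genes do not differ.

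Levels per length differed widely between members. In water thymuses the mean of the authors' FPKM (counts scaled by gene length and library size) ran from 7.59 for Rps13 to 3846 for Rplp1 among coding members tested, leaving aside the tissue-restricted paralogue Rpl3l. The median was 398 FPKM over the 20 coding members without a named pseudogene in the table. It was 265 over 39 members with 1 to 4 and 185 over 23 members with 5 or more. In U937 cells after PBS the medians were 133 FPKM over 20 members with 1 to 4 named pseudogenes and 133 over 58 with 5 or more, so the order seen in the mouse was not seen there. The 7 without one had a median of 0.1. They were RPL10L, RPL22L1, RPL26L1, RPL39L, RPL3L and Y-linked genes, and 3 of the 7 had 0 counts in both libraries. This class therefore cannot be set beside the mouse class of 20. How reads shared between a gene and its copies were counted is not given in the sources used here, and its part in these levels was not tested.

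Since members moved together in both mouse systems, the sequence around the annotated start of 4 of them is shown. Rpsa (the laminin receptor homologue of the small subunit) and Rplp0 (base of the stalk that recruits elongation factors) had among the steepest falls in regressing thymuses. Rpl5, which carries 5S rRNA, and Rps13, of the small subunit, did not pass the test there. Both stood well below the members' median CPM in water thymuses, as the values further on show. Each window holds the 60 bases before and the first 20 bases from the RefSeq start (GRCm38.p6), read 5′ to 3′ on the gene's strand, and capitals mark runs of 8 or more C or T. In the order shown, the RefSeq start lay 77, 0, 26 and 5 bases from the 5′ end that the thymus table gives.
Rpsa (chr9:120127706-120127785, plus strand): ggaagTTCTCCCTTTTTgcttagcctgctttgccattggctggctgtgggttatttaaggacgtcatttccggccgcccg
Rplp0 (chr5:115559407-115559486, plus strand): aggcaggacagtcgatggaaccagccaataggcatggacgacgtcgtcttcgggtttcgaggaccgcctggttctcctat
Rpl5 (chr5:107900468-107900547, plus strand): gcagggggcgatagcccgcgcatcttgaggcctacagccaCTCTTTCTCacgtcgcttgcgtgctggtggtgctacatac
Rps13 (chr7:116334171-116334250, minus strand): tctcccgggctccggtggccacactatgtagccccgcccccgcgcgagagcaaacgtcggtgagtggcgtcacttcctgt
Of the 88 mouse members, 63 matched a RefSeq promoter by symbol. A run of 8 or more C or T on the gene's strand stood in this window in 40 of them (63.5%), against 34.4% of 12402 tested genes and 34.5% of all 27025 genes with an entry. The letters CCGGAAG, on either strand of the 300 bases from 250 before to 50 after the start, stood in 39.7% of the matched members, 17.7% of tested genes and 9.93% of all genes with an entry. The reverse complement of CCGGAAG holds the pyrimidines CTTCC, so the searches can overlap. Of the windows shown, those of Rpsa and Rpl5 hold a run, before the RefSeq start in both, and those of Rplp0 and Rps13 hold none. A link between such runs and the changes in level was not tested.

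Ribosomal protein transcripts made up a smaller share of the library in regressing thymuses than in either other thymus group. They took 6.39, 9.25 and 6.53% of counts under water, 6.33, 6.85 and 5.32% in the progressing and 2.61, 2.66 and 2.87% in the regressing libraries. The group means were 7.39% ± 1.61, 6.17% ± 0.776 and 2.71% ± 0.138 (SD, n = 3 each), so the regressing mean was 2.72 times below water and 2.27 times below progressing. All 3 regressing libraries lay below all 6 others, whereas the progressing range overlapped that of water. Water replicate 2 stood apart with the highest share. Over the 82 members averaging at least 10 CPM, annotated pseudogenes included, the median was 504, 1172, 497 CPM in water. It was 568, 872, 517 in progressing and 214, 223, 254 in the regressing libraries, so progressing replicate 2 was also above the rest of its group. In bulk tissue, fewer cells that make much ribosomal protein mRNA and less of it per cell cannot be told apart.

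**Figure D1:**
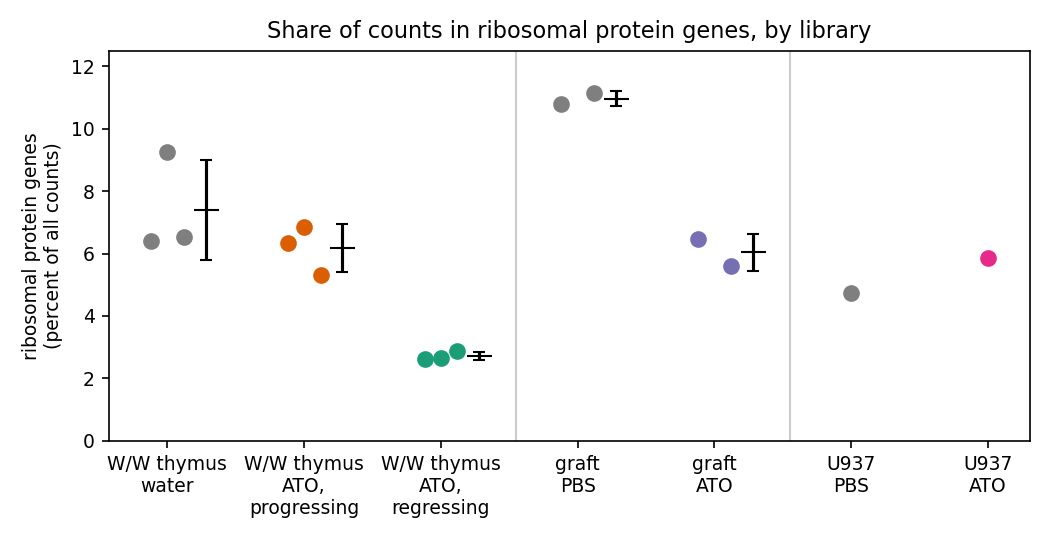
Share of all counts in ribosomal protein genes (percent, y axis) for each of the 15 libraries (points) by group (x axis), with the group mean and SD beside groups of 2 or 3. The regressing thymuses sit between 2.61% and 2.87%, below every other library, and the ATO grafts sit below the PBS grafts.

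Against water, 38 of 85 tested members fell in regressing thymuses and none rose, by edgeR's quasi-likelihood test at a Benjamini-Hochberg adjusted p under 0.05. Over all 18119 genes tested, 7.7% were called and 4.57% were called lower and 3.13% higher. The median log2 fold change of the tested members was -1.53 (a 2.89-fold lower level) against -0.11 over all genes tested, and 82 of 85 values were below 0. The large subunit (25 of 51 called lower, median -1.51) and the small subunit (13 of 34, median -1.53) had similar medians. In 76 of 85 members every regressing library lay below every water library, which was the case for 20.9% of all genes tested.

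The steepest falls among well-expressed members were in Rps2, Rplp0, Rpsa and Rplp1. Rps2, at the mRNA entrance of the small subunit (chr17:24718116-24721929 on GRCm38, overlapping the non-coding gene Snhg9 on the other strand), had 2125, 4919 and 1950.3 CPM in water and 440.3, 496 and 706 CPM in regressing thymuses. The groups did not overlap, and the fitted change was 5.48-fold lower (log2 fold change -2.45, SE 0.46, adjusted p = 0.0165, n = 3 each, edgeR). Rplp0 (chr5:115559467-115563727) had 4410.4, 8482 and 3803 CPM in water and 996, 1119.9 and 1204 in regressing thymuses (log2 fold change -2.33, SE 0.43, adjusted p = 0.0160, edgeR). The regressing libraries lay close together, and the water libraries were spread by the high value of replicate 2.

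Rpsa (chr9:120127689-120132369) had 3449, 4716 and 3287 CPM in water and 661, 784 and 878 in regressing thymuses, or 3817 ± 783 against 774 ± 109 (mean ± SD, n = 3 each). Its fall had the lowest adjusted p of all members (log2 fold change -2.30, SE 0.36, adjusted p = 0.0103, edgeR). Rplp1, an acidic stalk protein, had 1433, 3137 and 1827 CPM in water and 406, 388 and 586 in regressing thymuses, again with no overlap. It had a log2 fold change of -2.21 and its partner Rplp2 one of -1.51, which did not pass the test (adjusted p = 0.106, edgeR). The groups did not overlap for Rplp2 either: water had 476, 1656 and 497 CPM and regressing 255, 225 and 442 CPM.

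The mildest changes that passed were in Rpl10a (-1.47), Rpl36a (-1.31), Rpl12 (-1.28) and Rps12 (-1.25, all log2 fold changes). Of the members that bind Mdm2, Rpl11 (-1.64) and Rpl23 (-1.54) fell, with adjusted p = 0.0405 and 0.0441 (edgeR), while Rpl5 was at -0.82 (adjusted p = 0.112, edgeR). Rpl5 had 60.5, 89.0 and 46.5 CPM in water and 34.9, 41.2 and 35.2 in regressing thymuses. Its groups did not overlap in spite of the smaller difference. Among the anaemia genes, Rps19 fell (-1.72, adjusted p = 0.0443, edgeR) and Rps14, whose loss marks the 5q- syndrome, was at -1.42 (adjusted p = 0.158, edgeR). Rps14 had 1061, 4809.6 and 969 CPM in water and 822, 848 and 877 in regressing thymuses. Water replicate 2 stood far above the other 2, and without it the log2 fold change was -0.17.

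Only Rps13, Rps4l and Rpl3l of the 85 had fitted values above 0. Rps13 had 28.3, 18.3 and 17.1 CPM in water and 27.7, 25.6 and 20.4 in regressing thymuses, with overlapping groups (log2 fold change 0.21, adjusted p = 0.810, edgeR). It was singled out after its values were seen. Rps4l, an annotated pseudogene inside Tmtc1 on the other strand, stayed under 20 CPM in all 9 libraries. Rpl3l, the muscle form of Rpl3, had at most 12 counts in any water or regressing library, so its fitted value cannot be read as a fold.

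The number called rested on single libraries. Without regressing replicate 1 or 2 no member passed (edgeR, with 60 and 66 at an unadjusted p under 0.05) and without regressing replicate 3 the count was 6, while the median stayed between -1.53 and -1.46. Without water replicate 2, 19 members passed and the median was -1.001.

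Cell type markers also differed between the groups, but not all in the pattern of the members. Their counts stand beside the 7.7% of all genes called, 4.57% lower and 3.13% higher. Of 10 markers of double-positive thymocytes 8 were higher in regressing than in water thymuses (edgeR, adjusted p under 0.05), their summed level being 4993 to 10148 CPM against 460.5 to 623, and 2485 to 3541 in progressing thymuses. Of 8 thymic epithelial markers 3 were higher, while 3 of the 8 fitted values were below 0. The 8 summed to 1483 to 1692 CPM against 157 to 917 in water, with progressing thymuses at 41.6 to 102. Of 7 adipocyte markers 3 were higher, at 158 to 4949 CPM against 40.6 to 145, with Lep at 0 in the water libraries. Of 7 B cell markers 1 was lower; they summed to 963 to 7293 CPM in water, highest in replicate 2, against 1219 to 1657 in regressing and 99.1 to 158 in progressing thymuses. Of 7 fibroblast markers 3 were lower, and 5 of the 7 fitted values were below 0. The 7 summed to 131 to 439.7 CPM against 336 to 946 in water. No macrophage marker of 8 passed, although all 8 fitted values were below 0 and the sums did not overlap (536 to 970.2 CPM against 1742 to 2502). Of 10 proliferation genes 2 were lower in regressing thymuses and 7 of the 10 fitted values were below 0, with overlapping sums of 2185 to 2945 CPM against 2480.0 to 3248. The part of these markers in the fall of the ribosomal protein genes was not tested.

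**Figure D2:**
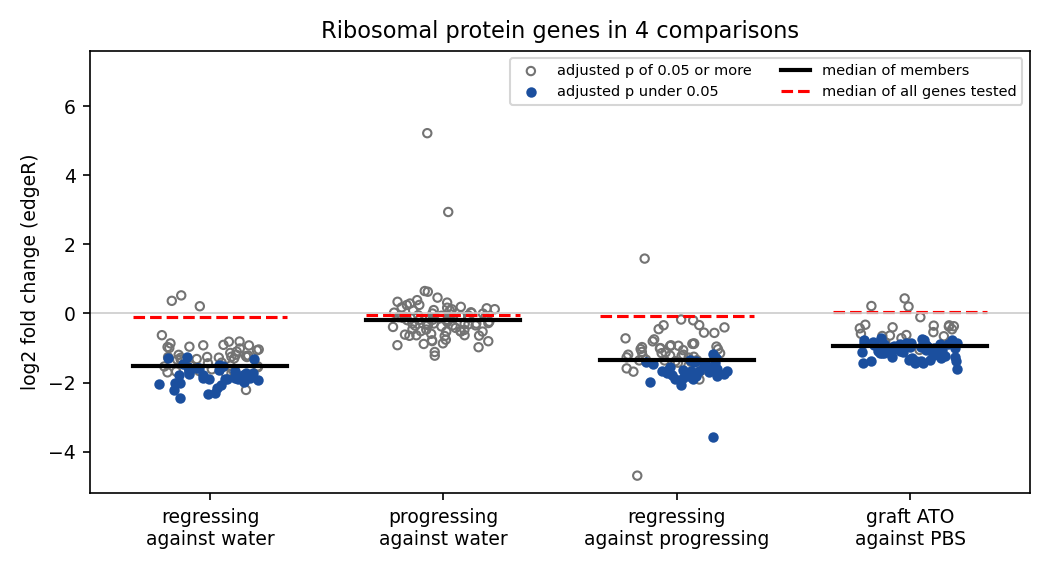
Fitted log2 fold change (y axis) of each tested ribosomal protein gene (points, filled where the edgeR adjusted p is under 0.05) in 4 comparisons (x axis), with the median of the members (solid line) and of all genes tested (dashed line). The members' median lies at -1.53, -0.19, -1.35 and -0.96 from left to right.

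In progressing thymuses no member passed the test against water. The count was 0 of 85 with edgeR, 8 at an unadjusted p under 0.05 (6 of them lower, where 28.6% of all genes tested were under it) and 3 with DESeq2, while 11.9% of all genes tested were called (7.13% lower, 4.77% higher). The members' median log2 fold change was -0.19, against -0.04 over all genes. Without water replicate 2 it turned to 0.28, so neither direction can be read from it, and 2 members then passed. Groups were apart and lower in 6 members, a share below the 14.7% of all genes.

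The lowest values among well-expressed members in this comparison were Rps2 (-1.12), Rpl36a (-0.98) and Rpl10a (-0.92), and the highest were Rpl5 (0.65), Rpl30 (0.63) and Rpl7a (0.46), with adjusted p from 0.0680 to 0.553 (edgeR). Rps2 had 1225, 1789 and 1138 CPM in progressing thymuses, below all 3 water libraries. Rpl5 had 86.7, 98.9 and 122 CPM, which overlapped the water values given above. Rpl3l reached 17.4 CPM in progressing replicate 2 and at most 1.91 in the other 2.

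The comparison of the outcomes under ATO uses the same regressing libraries as the one against water. Here 34 of 85 members were lower in regressing thymuses and none was higher (edgeR), where 12.6% of all genes were called and 6.18% were lower and 6.45% higher. The members' median log2 fold change was -1.35 (-0.07 over all genes). The groups were apart and lower in 75 members, against 20.6% of all genes. In 71 of 85 members all 3 regressing libraries lay below all 6 water and progressing libraries, as they did for 10.3% of all genes tested.

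Rpl32, Rpl6l and Rpl30 were among the steepest falls of members averaging at least 10 CPM. Rpl32, of the large subunit, had 2347, 2069.9 and 884 CPM in progressing and 398, 411 and 459 in regressing thymuses (log2 fold change -2.06, SE 0.48, adjusted p = 0.0255, edgeR). Rpl30, also of the large subunit, had 941, 2058 and 1402 CPM in progressing and 344, 374 and 455 in regressing thymuses (log2 fold change -1.91, SE 0.38, adjusted p = 0.0174, edgeR). In both, the groups did not overlap and the progressing libraries were the more spread. Rpl6l is annotated as a pseudogene and may share reads with Rpl6. The mildest calls were Rpl23a, Rps18, Rps16 and Rps6, from -1.37 to -1.16.

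All 3 Mdm2-binding members fell between progressing and regressing thymuses, with log2 fold changes of -1.46 for Rpl5, -1.48 for Rpl11 and -1.56 for Rpl23 (adjusted p = 0.0199, 0.0417 and 0.0337, edgeR). Leaving out regressing replicate 1 or 2 again left no call (with 50 and 56 at an unadjusted p under 0.05, edgeR), leaving out regressing replicate 3 left 3, and leaving out progressing replicate 2 or 3 left 10 and 11. With all libraries 69 members and 31.7% of all genes tested were at an unadjusted p under 0.05 (edgeR), and the share of all genes in the refits is not given here. The median stayed between -1.46 and -1.07.

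With both ATO outcomes averaged, 18 of 85 members were lower than in water and none was higher (edgeR; 10.9% of all genes called, 7.3% lower and 3.57% higher), at a median log2 fold change of -0.84 (-0.11 over all genes). Rps2 (-1.78), Rpsa (-1.59), Rplp0 (-1.49) and Rps18 (-1.48) were lowest. The average runs over unlike groups: 6 members had all 6 ATO libraries below all 3 water libraries, against 6.16% of all genes (6.13% were apart and higher). The number called fell to 8, 4, 11, 5, 2, 1 and 8 without water 1, water 2, progressing 1, progressing 3, regressing 1, regressing 2 and regressing 3, and to 11 with the replicate number as a block. Without water replicate 2 the median was -0.35.

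Rpl22 and its paralogue Rpl22l1 encode large subunit proteins that can take each other's place, and Rpl22 is known to repress Rpl22l1. Rpl22 (chr4:152325742-152334071) had 730.2, 1153 and 659.7 CPM in water, 623, 1319 and 627 in progressing and 210.2, 220.3 and 267 in regressing thymuses. It fell in regressing thymuses against water (log2 fold change -1.87, SE 0.40, adjusted p = 0.0239, edgeR) and against progressing ones (-1.88, adjusted p = 0.0199, edgeR). Rpl22l1 (chr3:28805436-28807424) had 58.9, 339 and 43.3 CPM in water, 218, 122 and 48.0 in progressing and 67.2, 59.9 and 83.3 in regressing thymuses, and passed no test (adjusted p = 0.369 for regressing against water, edgeR). Water replicate 2 and progressing replicate 1 were high in it, and the groups overlapped. Without water replicate 2 its value for regressing against water turned from -1.07 to 0.54.

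The log2 ratio of Rpl22l1 to Rpl22 counts, which does not depend on how libraries are scaled, was -3.63, -1.77, -3.93 in the 3 water libraries. It was -1.52, -3.43, -3.71 in the progressing and -1.65, -1.88, -1.68 in the regressing libraries. All 3 regressing libraries were at the high end of the scale, together with 1 water and 1 progressing library, and the other 4 lay at -3.43 or below. The mean differences were 1.37 for regressing minus water and 1.15 for regressing minus progressing, with p = 0.2 and 0.4 in a two-sided exact permutation test (0.6 both after adjustment over 3 comparisons), and 0.1 is the smallest p that 3 against 3 allows. In grafts the ratio was -4.07 and -4.18 after PBS and -4.09 and -4.39 after ATO. In U937 cells it was -4.95 after PBS and -5.76 after ATO, from 203 and 110 RPL22L1 counts.

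**Figure D3:**
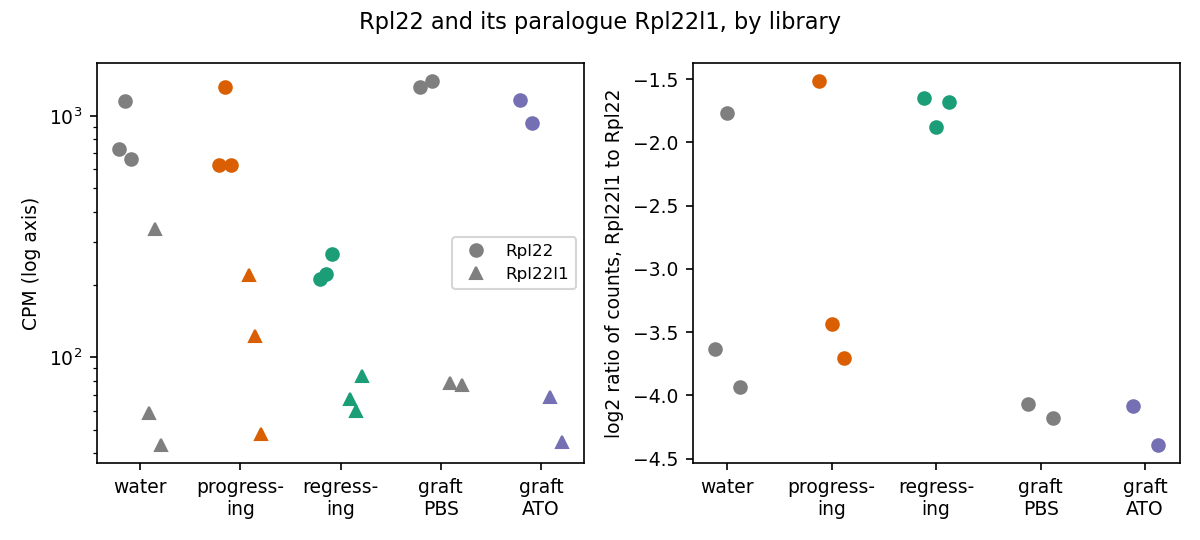
Left, CPM (log axis) of Rpl22 (circles) and Rpl22l1 (triangles) in each mouse library by group. Right, the log2 ratio of Rpl22l1 to Rpl22 counts in the same libraries, where the 3 regressing thymuses lie between -1.88 and -1.65 and water and progressing thymuses spread from -3.93 to -1.52.

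The other paralogues were also described side by side. Rpl7 (-1.10) and Rpl7l1 (-0.999), which works in ribosome assembly, were both below 0 in regressing against water and neither passed (adjusted p = 0.0729 and 0.0945, edgeR). Rpl3 fell (-1.86, adjusted p = 0.0213, edgeR), as did Rps4x (-1.67) and Rpl39 (-1.81). Rpl39l and Rpl10l, paralogues with highest expression in testis, had at most 0.735 and 0.221 CPM in any thymus library and were not tested.

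Ribosomal protein genes were lower in ATO than in PBS grafts: 62 of 84 tested fell and none rose (edgeR), against 13.9% of 15468 genes called and 6.57% called lower and 7.37% higher. Their share of counts was 10.8 and 11.1% after PBS and 6.46 and 5.61% after ATO, a mean 1.82 times lower. The median log2 fold change was -0.96 (0.04 over all genes), again alike for the large (-0.96) and the small subunit (-0.96). Both ATO libraries lay below both PBS libraries in 78 of 84 members, as they did for 30% of all genes. Without PBS replicate 1 the count was 38, where the lone PBS library is assumed to vary as the ATO pair does.

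Rpsa, Rps15, Rpl38 (-1.44) and Rplp2 fell most among members averaging at least 10 CPM. Rpsa had 6949 and 6983 CPM after PBS and 2367 and 2175 CPM after ATO, a 3.07-fold lower level (log2 fold change -1.62, SE 0.22, adjusted p = 0.00376, n = 2 each, edgeR). Rps15, a small subunit protein, had 3729 and 4547 CPM after PBS and 1824 and 1224 after ATO (log2 fold change -1.44). Rplp0 (-1.38), Rplp1 (-1.39) and Rplp2 (-1.43), the whole stalk, fell by nearly the same amount, with adjusted p = 0.00815, 0.00588 and 0.00476 (edgeR). The mildest calls were Rps3, Rps25, Rps18 and Rpl34, from -0.78 to -0.71.

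In grafts 22 tested members did not pass, and the members that bind Mdm2 lay on both sides of the test. Rpl5 was at -0.34 (adjusted p = 0.431, edgeR), with 76.4 and 94.8 CPM after PBS and 88.3 and 46.7 after ATO, so the groups overlapped. Rpl23 was at -0.59 (adjusted p = 0.0915, edgeR), and Rpl11 fell (-1.15, adjusted p = 0.00979, edgeR). Rpl22 was at -0.37 and Rpl22l1 at -0.46, neither past the test (adjusted p = 0.253 and 0.207, edgeR). Rps19 (-1.11), Rps14 (-0.98) and Rps6 (-1.01) fell. Rpl10a, Rps4l and Rps13 had values above 0, and in Rps13 the values were 9.46 and 13.8 CPM after PBS and 21.9 and 9.53 after ATO.

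Mitochondrially encoded transcripts took 0.521% and 1.02% of counts in PBS grafts and 5.98% and 4.03% in ATO grafts. Of 7 muscle markers 2 were higher after ATO (summed 349.6 to 352 CPM against 38.5 to 236). Of 7 fibroblast markers 4 were higher (645 to 1671 against 245 to 493) and of 8 macrophage markers 4 were lower (347 to 402 against 683 to 906). Of 9 T lineage markers tested 1 was lower, and all 9 fitted values were below 0. Over all genes 13.9% were called, 7.37% higher and 6.57% lower. With the mitochondrial genes and the 7 muscle markers taken out of the table, 63 members passed and the median was -0.95. This changes only the scaling of libraries, and leaves in all other transcripts of muscle cells. B cell markers summed to 151 to 232 CPM after PBS and 109.8 to 165 after ATO, where Ms4a1 was at 0. The part of the cells behind the muscle, fibroblast, macrophage and T lineage markers in the fall, and that of the mitochondrial transcripts, was not tested.

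In U937 cells the members lay on the other side of 0. They took 4.73% of counts after PBS (95% Wilson interval 4.72 to 4.74) and 5.84% after ATO (5.83 to 5.85). With 1 library per treatment there is no test, and intervals cover counting error only. Of the 81 members with a mean of at least 1 CPM, 48 were more than 1.25-fold higher after ATO and 5 more than 1.25-fold lower, where 40% of all 13722 genes were past that fold upward and 27.5% downward. The median log2 ratio was 0.38 for members and 0.13 for all genes. On TMM scaling it was 0.19 for members and -0.05 for all genes, with 21 members past the fold upward and 10 downward. On that scaling 32.0% of all genes were past it upward and 35.9% downward, against 25.9% and 12.3% of members, so the members' share past the fold upward was not above that of all genes.

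RPS18, RPLP1, RPS27 and RPL39 had the highest ratios. RPS18, a small subunit protein, had 1091 CPM after PBS (95% Poisson interval 1076 to 1107) and 2226 CPM after ATO (2204 to 2249), a log2 ratio of 1.03. RPLP1 had 938 CPM after PBS (95% Poisson interval 924 to 952) and 1737 CPM after ATO (1717 to 1757), a log2 ratio of 0.89. RPS27, a small subunit protein with a zinc finger, had a log2 ratio of 0.87 and RPL39, of the exit tunnel, one of 0.82 at a low level of 14.2 and 25.8 CPM. RPL22L1, RPS2, RPL7L1 (-0.40) and RPL36A (-0.39) had the lowest ratios. RPS2 had 2112 CPM after PBS (95% Poisson interval 2091 to 2134) and 1465 CPM after ATO (1447 to 1484), a log2 ratio of -0.53, and RPL22L1, near 10 CPM, a log2 ratio of -0.69. RPSA was also lower after ATO (-0.24), while RPLP0 (0.39), RPS6 (0.68), RPS19 (0.68) and RPL11 (0.39) were higher. RPL5 was at 0.09. RPL26L1, a near copy of RPL26, had 5.87 and 7.17 CPM. The sum of 10 myeloid markers was 2834 CPM after PBS and 1062 after ATO, and its part in these ratios was not tested.

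The mouse systems share no library. Of 84 members tested in both, 30 were called lower in regressing thymuses against water and in ATO grafts. This is 78.9% of the 38 thymus calls and 48.4% of the 62 graft calls. Among all tested members, 73.8% were called in grafts and 44.7% in regressing thymuses. Both overlap shares lay near these, so the overlap does not single out the same members. The 8 called in the thymus alone were Rpl4, Rpl10a, Rpl12, Rpl22, Rpl23, Rpl39, Rps12 and Rps20. Whether their change differed between the systems was not tested. Across 79 coding members the 2 sets of log2 fold changes had a Pearson r of 0.46 and a Spearman rho of 0.31. Against the U937 log2 ratios the thymus values had an r of 0.0451 over 78 members. Members within a table share libraries and counting, so these are descriptions and carry no p.

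**Figure D4:**
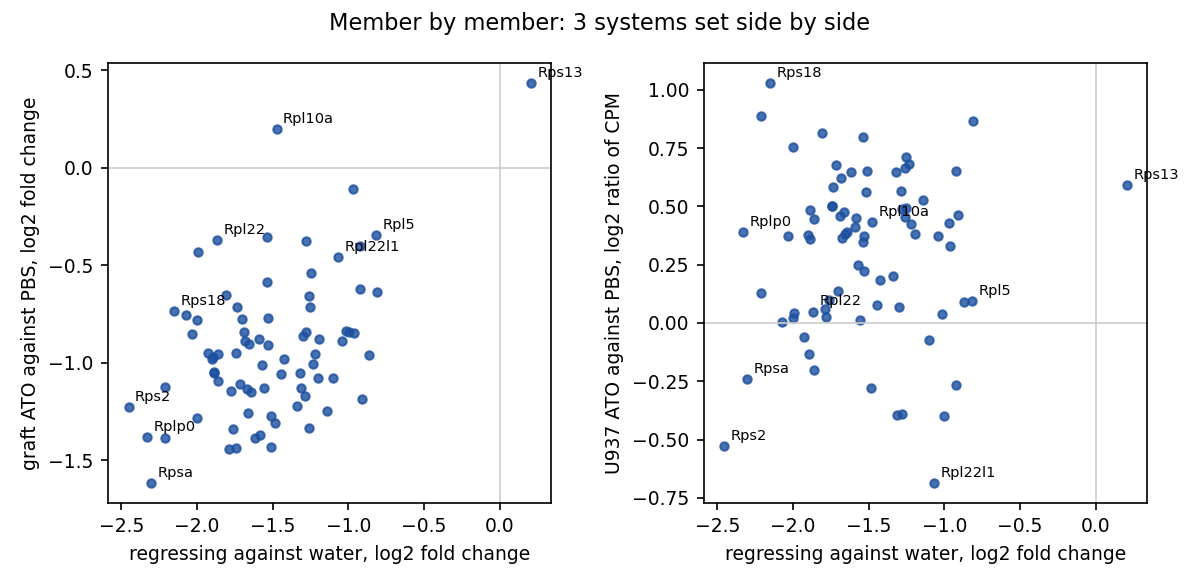
Each point is a coding ribosomal protein gene. The x axis is the fitted log2 fold change of regressing against water thymuses, and the y axis is that of ATO against PBS grafts (left, 79 genes) or the log2 ratio of CPM in U937 cells (right, 78 genes). Rpsa and Rplp0 lie at the low end of both mouse axes and Rps13 at the high end, and most U937 ratios lie above 0.

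Other parts of the translation machinery were counted by lists written from general knowledge. Of 52 ribosome assembly factors, which process rRNA and build the subunits, 41 fell in regressing thymuses against water (edgeR), where 4.57% of all genes were lower, at a median log2 fold change of -1.83. Examples were Wdr43 (log2 fold change -2.09, adjusted p = 0.00391, edgeR), Rrp1b (-2.32) and the RNA helicase Ddx21 (-2.05). In progressing thymuses 8 of 52 were lower than in water, among them Ppan (log2 fold change -1.68, adjusted p = 0.00715, edgeR) and Polr1a, the largest subunit of RNA polymerase I (-1.22). These were 15.4% of the assembly factors, where 7.13% of all genes were lower and 11.9% were called in either direction. The assembly factors' median log2 fold change was -0.45, against -0.04 over all genes. Between the outcomes, where Nop58 (log2 fold change -2.01, adjusted p = 0.00924, edgeR) led, 28 of 52 were lower in regressing thymuses. Over all genes 12.6% were called in that comparison and 6.18% were lower. Of 15 regulators of ribosome supply (Myc and genes of the mTOR pathway among them), Larp1, which binds mRNAs led by pyrimidines, passed with both ATO outcomes averaged (log2 fold change -1.02, adjusted p = 0.0329, edgeR), but lost the call when any thymus library other than water replicate 3 or progressing replicate 1 was left out. Rheb, an activator of mTOR, fell in grafts (log2 fold change -0.89, adjusted p = 0.0195, edgeR), and did not pass without PBS replicate 1 or ATO replicate 2. Myc fell against water in both outcomes, with log2 fold changes of -3.35 in regressing and -2.82 in progressing thymuses (adjusted p = 0.0228 and 0.0262, edgeR). These were -1.97 and -1.51 without water replicate 2, and the first call was lost when any regressing library was left out, the second when any progressing library was. For the assembly factors, without progressing replicate 3 the count in progressing against water was 2 and that in regressing against progressing 9, and without water replicate 2 or 3 or progressing replicate 2 the former was 5, 5 and 4. With the replicate block the former was 5 and with the compared groups alone 2. In regressing against progressing it was 0, 2 and 7 without regressing replicate 1, 2 and 3. Without regressing replicate 1 or 2, 2 and 1 assembly factors passed against water.

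In ATO grafts 7 of 52 assembly factors fell and 1 rose (median -0.19), while 40 of 78 mitochondrial ribosomal protein genes fell (median -0.70). Over all genes 6.57% fell and 7.37% rose. In either direction 15.4% of the assembly factors and 13.9% of all genes were called, but the calls among assembly factors were mostly lower. Nhp2, a component of box H/ACA particles, had the strongest call among the assembly factors (log2 fold change -1.29, adjusted p = 0.00534, edgeR). Without PBS replicate 1 these counts were 2 assembly factors and 7 mitochondrial genes, and on unscaled totals 17 mitochondrial genes. In regressing thymuses 10 of 78 mitochondrial ribosomal protein genes were lower than in water (median -1.21), where 4.57% of all genes were lower. Of these mitochondrial genes, 1 passed without regressing replicate 3, and none without water replicate 2 or regressing replicate 1 or 2. Their median was -0.40 without water replicate 2, and with the replicate block 5 passed. In U937 cells 44 of 52 assembly factors were more than 1.25-fold lower after ATO, as were 27.5% of all genes (median log2 ratio -1.04), opposite in sign to the subunit genes, and the mitochondrial list had a median of -0.10.

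Translation factors bring mRNA and tRNA to the ribosome. Of 32 translation factors 9 fell in regressing against water, 10 against progressing and 15 in ATO grafts, and none rose (edgeR). Over all genes 4.57%, 6.18% and 6.57% were lower in these comparisons. Eif5a, which relieves stalled ribosomes, had the lowest adjusted p in the first (log2 fold change -2.55, adjusted p = 0.0219, edgeR) and Eif3f, of the eIF3 scaffold, in the last (log2 fold change -1.29, adjusted p = 0.0111, edgeR). Without regressing replicate 1, 2 or 3 no translation factor passed in either thymus comparison. Without water replicate 2 the first count was 5, without progressing replicate 2 and 3 the second was 2 and 0, and without PBS replicate 1 the graft count was 4. On unscaled totals the graft count was 8. Rack1, a scaffold on the small subunit, fell in regressing thymuses against water (log2 fold change -2.25, adjusted p = 0.0219, edgeR) and in ATO grafts (log2 fold change -1.15, adjusted p = 0.0111, edgeR). Rps27l, a p53 target that the rule leaves out, fell in regressing thymuses against progressing ones (log2 fold change -2.76, adjusted p = 0.0155, edgeR) and in ATO grafts (log2 fold change -0.85, adjusted p = 0.0230, edgeR). All 5 genes of the list of ribosome genes outside the symbol rule fell in ATO grafts. Named pseudogenes of members were called lower in 30 of 98 tested in regressing against water and 34 of 120 in grafts, and they may hold reads of their parent genes.

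**Figure D5:**
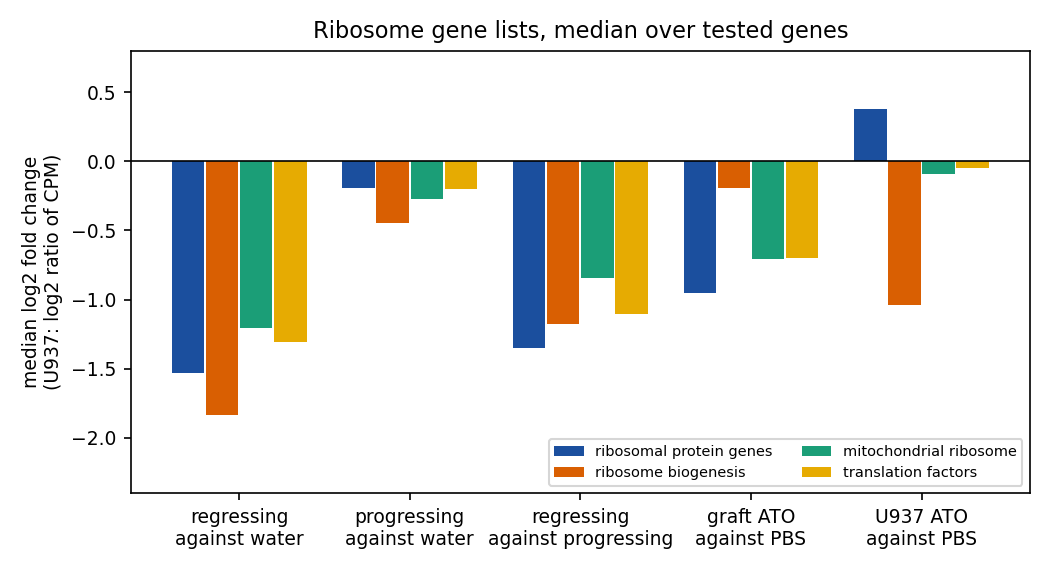
Median log2 fold change (y axis; log2 ratio of CPM for U937) over the tested genes of 4 lists (bars) in 5 comparisons (x axis). Assembly factors have the lowest bar in regressing against water (-1.83) and in U937 cells (-1.04), and the one nearest 0 in grafts (-0.19).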

How the data were processed

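Each system has a table of its own, in which the authors deposited unnormalised read counts for every gene beside FPKM values, per the file headers. Per the submitters' processing notes, FastQC 0.10.1, cutadapt 1.9.1 and HISAT2 2.0.1 were used with GRCm38 (mm10), and the counting program, its treatment of strand and of reads with several matches are not given in the sources used here. The notes name no human build for U937, and gene positions in the human table were 98.1% identical to a human GENCODE release. Strand matters to members that overlap an antisense gene (Rps2 and Snhg9, for example). The labels' protocols state 1.3 ug of total RNA per library and also hold a passage on cell culture that does not describe these tissues. Gene positions in the thymus table were those of GRCm38 (98.9% identical to GENCODE vM21). The graft table uses another mouse build, so no coordinates are given from it.

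Counts were fitted with edgeR 4.0.16 in R 4.3.3 (filterByExpr, TMM, glmQLFit, glmQLFTest), adjusted over all genes tested: 9 thymus libraries in 3 groups, and 4 graft libraries apart. SE is the log2 fold change over the root of F. In the 2 U937 libraries the log2 ratio of CPM on total counts was taken with a pseudocount of 1, where the mean was at least 1 CPM. Intervals cover counting error only. Called means an adjusted p under 0.05 (1.25-fold in U937). The FPKM values served only to compare levels between genes.

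Members and lists were chosen with earlier results of these data known. Named in each comparison were the 4 highest and 4 lowest called members with a mean of at least 10 CPM (3 each, as values, where under 3 passed), in U937 the 4 highest and lowest, the fixed paralogues, Mdm2 binders and known markers, and up to 4 called genes of a list. Of the fixed genes, those not printed in a comparison are covered by the counts. Rpl39l, Rpl10l and Rps12l1 in the thymus table, and these with Rpl3l in the graft table, were under the filter on low counts. The human members include Y-linked genes, which were counted and are not named. Some genes that the rule for named genes covers are not reported here.

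Data were simulated with the real means and spread. For regressing against water, 64, 64 and 65 of 18119 genes were changed 2-fold, 4-fold and 16-fold, and 0%, 12.5% and 64.6% of them were recovered. For the grafts 24.6% were recovered at 2-fold and 71.7% at 4-fold. The absence of a call in the thymus therefore does not exclude a change of 2-fold. The simulation changed few genes, which makes the adjusted p stricter than where many genes differ. Alternatives were DESeq2 1.42.0, other scalings, no filter, each library left out, a replicate block and, chosen after seeing the data, the pair of libraries that stood apart, crossed graft numbers and grafts without mitochondrial and muscle genes. Replicate numbers did not pair the thymus libraries (correlations of same-numbered libraries from -0.12 to 0.15).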

Additional observations from a re-analysis of the deposited data

Results flagged for a closer look

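The share of counts in ribosomal protein genes moved in opposite directions in the graft and U937 systems. The mean share after ATO was 0.551 times that after PBS in grafts, where both ATO libraries lay below both PBS libraries, and 1.24 times that after PBS in the single pair of U937 libraries. Every sample of the one system moved one way and the pair of the other the opposite way. The difference itself was not tested, since the tables come from different species and U937 has 1 library per treatment.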

How the results depend on the processing

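Without one library at a time, the number of members called ran from 0 to 41 for regressing against water, 0 to 2 for progressing against water, 0 to 27 for regressing against progressing, 1 to 20 for all ATO thymuses and 38 to 72 for grafts. The medians ran from -1.76 to -1.001, -0.43 to 0.28, -1.46 to -1.07, -1.06 to -0.35 and -1.13 to -0.83 in the same order. Left-out shares ran from 6.46% to 7.89% in water, 5.83% to 6.59% in progressing, 2.63% to 2.76% in regressing, 10.8% to 11.1% in PBS and 5.61% to 6.46% in ATO grafts. For progressing against water the count of 0 became 2 on unscaled totals and without the filter, 3 with DESeq2, and 1 with the compared groups alone and without water replicate 2 and progressing replicate 2 together, where the regressing against water median was -1.01. The cause was not tested.

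With the replicate number as a block the counts were 32, 0, 26, 11 and 54, of which 11 for all ATO thymuses was over 1.5 times below 18. Same-numbered graft libraries correlated at -0.12, and with crossed numbers 70 members were called. DESeq2 called 56, 3, 50, 22 and 69. On unscaled totals the graft median was -0.76 while that of all genes moved from 0.04 to 0.23, and that of regressing against water moved from -0.11 to 0.09. On TMM the U937 median was 0.19.

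Shares moved by definition of the total: the regressing share was 2.97% with named pseudogenes, the PBS graft share 11.5% over protein-coding genes and 11.8% with pseudogenes. U937 shares without mitochondrial genes, over coding genes and with pseudogenes were 4.97%, 4.85% and 5.02% after PBS and 6.10%, 6.05% and 6.15% after ATO.

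Of 1354 alternative fits of 106 called results (a gene in a comparison), 1028 kept the call and 326 lost it, with no change of sign. Signs changed only in results that were not called. For progressing against water these were Rpl7a (without one library, -0.0417 to 0.81), Rpl22 (-0.0216 with the block, -0.37 to 0.30 without one library, -0.14 without the pair), Rpl22l1 (0.0654 on unscaled totals, 0.0863 with the block, -0.79 to 1.36 without one library, 1.39 without the pair) and Rpl11 (-0.47 to 0.28). For regressing against water they were Rpl3l (-4.44 to 1.11, on near-zero counts and not to be read as a fold), Rpl22l1 (-1.504 to 0.54, and 0.53 without the pair) and Rps4l (-0.0601 to 1.06), and against progressing Rpl7l1 (-0.43 to 0.22). In grafts they were Rpl10 (0.0816 on unscaled totals, -0.51 to 0.18), Rpl5 (-0.89 to 0.0256) and Rps4l (-0.099 to 0.56).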
